A study of Homo sapiens with 15 samples.

Results

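Antisense transcripts are RNAs annotated on the strand opposite to another gene. They were chosen as the rows of the deposited table whose annotated type is antisense, leaving out CTD-2201G16.1, which gave 361 of 11230 listed rows. The cells were HEK293FT, a human line of embryonic kidney origin, and polyA RNA was sequenced. The groups were trex0108, trex4039, trex5008 and trex8168, named by library title, and control, with 3 libraries each from separate biological samples by the labels. Each of the first 4 received a pool of 5 guide RNAs lying 50 to 450 bp before the start of 1 TrEx long non-coding RNA, and control received non-targeting guides. All 5 groups, control included, carried dCas9-VP64 and the MS2, p65 and HSF1 activator, met 2 ug/mL puromycin at 24 hours and were harvested at 48 hours. By the target labels, trex0108 libraries target TrEx108 and trex4039 libraries TrEx4039. Libraries titled trex5008 are labelled as targeting TrEx8168 and those titled trex8168 as targeting TrEx5008, and that conflict was not settled. The transfection was transient, in 1 cell line, and the RNA was from bulk cells, so less of an RNA in each cell and fewer cells carrying it cannot be told apart.

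Antisense RNAs often start within, or share a promoter region with, the protein-coding gene they oppose. Some act on that gene by changing its chromatin or by pairing with its RNA, others act elsewhere in the cell, and for most no role is known. A sense gene and its antisense partner are read here side by side for that reason. A CRISPR activator recruited to a promoter can raise transcription on either strand, but the guides were placed before the TrEx RNAs. Whether the activator was recruited to any of the paired loci was not tested.

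The table is itself a selection, since all of its 11230 rows pass an adjusted p of 0.1 in 1 or more of the 4 comparisons with control. The antisense rows are thus those that moved somewhere, not all antisense RNAs of these cells. They carry 349 symbols, because 21 rows share 9 symbols as separate loci, and 17 rows are named only by a locus identifier. The rows lie on 23 chromosomes and span 489 to 474096 bp each, with a median of 14673 bp. The authors' mean normalised count over the 15 libraries ran from 2.01 to 7270 per antisense row, with a median of 108. A mean of at least 50 was reached by 256 rows, and 105 rows (29.1%) stayed under it, against 6.38% of the protein-coding rows.

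Strands were looked up to describe the pairs. The table gives none, so strands were taken by symbol from RefSeq and GENCODE 29. Both strands were matched for 49 of 231 antisense and protein-coding pairs that overlap, and 47 of those 49 lay on opposite strands. The exceptions were MIR3615 with SLC9A3R1 and AC018737.1 with MKI67IP, which lay on the same strand. Label and strand both rest on annotation, and a strand was matched for only 99 of the 361 antisense rows. These counts are therefore no independent check of the label. The sources used here do not give the strand setting of the read counting, so reads of overlapping rows may have been shared between them.

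Promoter windows help to show what these loci look like. RefSeq windows (build GRCh38.p14) from 250 bases before to 50 after the start were matched for 59 of the 361 rows. The windows of 6 rows that the results below return to are given 5′ to 3′, with each CG dinucleotide in capitals. LINC01024 (chr5:140107963-140108262, minus strand), ST3GAL6-AS1 (chr3:98732602-98732901, minus strand) and MID1IP1-AS1 (chrX:38803834-38804133, minus strand) rose in trex0108. NNT-AS1 (chr5:43603181-43603480, minus strand) rose in trex4039, FOXD2-AS1 (chr1:47434592-47434891, minus strand) fell in 3 comparisons, and UGDH-AS1 (chr4:39527589-39527888, plus strand) fell while the gene it overlaps rose.
LINC01024: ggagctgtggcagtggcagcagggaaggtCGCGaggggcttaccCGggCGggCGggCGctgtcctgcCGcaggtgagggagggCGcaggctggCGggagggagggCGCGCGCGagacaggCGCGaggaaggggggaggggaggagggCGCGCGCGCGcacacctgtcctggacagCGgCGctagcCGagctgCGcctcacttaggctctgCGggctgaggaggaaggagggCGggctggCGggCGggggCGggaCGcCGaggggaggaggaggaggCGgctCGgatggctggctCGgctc
ST3GAL6-AS1: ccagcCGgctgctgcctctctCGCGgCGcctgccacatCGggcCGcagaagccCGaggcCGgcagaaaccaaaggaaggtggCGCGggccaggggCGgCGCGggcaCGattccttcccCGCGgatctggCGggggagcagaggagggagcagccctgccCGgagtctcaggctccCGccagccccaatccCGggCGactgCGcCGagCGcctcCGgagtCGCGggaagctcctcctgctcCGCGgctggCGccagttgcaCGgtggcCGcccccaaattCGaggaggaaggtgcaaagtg
MID1IP1-AS1: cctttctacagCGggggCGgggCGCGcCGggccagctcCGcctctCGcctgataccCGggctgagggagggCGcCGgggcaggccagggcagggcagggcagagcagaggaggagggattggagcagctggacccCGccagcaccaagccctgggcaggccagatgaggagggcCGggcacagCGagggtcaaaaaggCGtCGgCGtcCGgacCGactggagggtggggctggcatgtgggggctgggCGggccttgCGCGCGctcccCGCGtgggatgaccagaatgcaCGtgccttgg
NNT-AS1: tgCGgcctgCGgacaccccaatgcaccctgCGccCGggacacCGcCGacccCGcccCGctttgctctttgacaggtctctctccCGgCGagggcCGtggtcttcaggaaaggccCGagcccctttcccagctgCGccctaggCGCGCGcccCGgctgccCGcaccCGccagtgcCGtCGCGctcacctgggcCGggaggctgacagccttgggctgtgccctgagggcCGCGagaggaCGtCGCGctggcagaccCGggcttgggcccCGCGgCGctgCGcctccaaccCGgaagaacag
FOXD2-AS1: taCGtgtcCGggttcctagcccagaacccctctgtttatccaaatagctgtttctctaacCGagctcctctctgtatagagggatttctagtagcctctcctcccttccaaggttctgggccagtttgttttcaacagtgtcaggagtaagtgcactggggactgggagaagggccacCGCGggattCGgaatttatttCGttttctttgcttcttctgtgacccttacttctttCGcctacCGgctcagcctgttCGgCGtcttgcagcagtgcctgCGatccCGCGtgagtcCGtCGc
UGDH-AS1: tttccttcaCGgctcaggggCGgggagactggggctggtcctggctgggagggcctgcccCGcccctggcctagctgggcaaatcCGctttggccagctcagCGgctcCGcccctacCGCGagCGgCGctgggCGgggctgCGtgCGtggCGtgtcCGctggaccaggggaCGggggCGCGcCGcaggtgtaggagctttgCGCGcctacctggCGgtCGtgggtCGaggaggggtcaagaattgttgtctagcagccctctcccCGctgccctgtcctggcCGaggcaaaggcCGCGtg

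The windows were searched for CG, a letter pair read alike on both strands. LINC01024 and NNT-AS1 hold 34 each, ST3GAL6-AS1 33, UGDH-AS1 28, MID1IP1-AS1 25 and FOXD2-AS1 16. At least as many are held by 15.6% of all windows for LINC01024, by 32% for MID1IP1-AS1 and by 47.5% for FOXD2-AS1, whose window is near the middle. Over the 55 distinct windows of antisense rows the median was 24 CG pairs, and over all 35116 windows it was 14. The letters TATAAA, searched on both strands, were found in none of the 6 windows, in 3 of the 55 (5.45%) and in 11.5% of all windows. The 35116 windows were not limited to listed rows, and windows of listed protein-coding rows were not counted. Neither difference is thus shown to be particular to antisense rows. FOXD2-AS1 has a GC content of 53.3% in its window, and the other 5 lie between 71.7% and 76.3%.

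The question put to each group is which antisense RNAs differ from control. In trex4039, trex5008 and trex8168 more antisense rows fell than rose, while in trex0108 nearly all called rows rose. In trex4039, 70.7% of all listed rows passed an adjusted p of 0.05 in either direction, against 54.1% in trex5008, 21.0% in trex8168 and 5.89% in trex0108. By that threshold in the authors' deposited table, 50 antisense rows were higher and 158 lower in trex4039, of 357 rows with an adjusted p. Over all listed rows in that comparison 37.1% were higher and 33.7% lower, and for antisense rows the shares were 14% and 44.3%. In trex5008 the authors' deposited table has 27 antisense rows higher (8.54%) and 80 lower (25.3%) of 316, where 29.8% and 24.3% of all listed rows were called. In trex8168 it has 15 higher (4.63%) and 35 lower (10.8%) of 324, where 14.6% and 6.45% of all listed rows were called. In trex0108, where 5.65% of all listed rows were called higher and 0.249% lower, the authors' deposited table has 31 of 361 antisense rows higher (8.59%) and 2 lower (0.554%). In trex5008 the share of lower rows was thus near that of all listed rows, and the share of higher rows was the one that differed. Called in at least 1 comparison were 272 of the 361 rows. Every listed row was already chosen at an adjusted p under 0.1 in 1 or more comparisons. The count over all listed rows was not made, so 272 says nothing particular to antisense rows.

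Protein-coding rows had more rises than falls in those 3 groups. In trex5008, 32.4% were higher and 24.6% lower, a share of falls like that of antisense rows, and in trex8168 16.6% were higher and 4.57% lower. Of the called antisense rows 76% were lower in trex4039, 74.8% in trex5008 and 70% in trex8168, against 42.6%, 43.2% and 21.6% of the called protein-coding rows. The median log2 fold change in the authors' deposited table was -0.05 in trex0108, -0.25 in trex4039, -0.14 in trex5008 and -0.08 in trex8168 for antisense rows. For protein-coding rows it was 0.03, 0.09, 0.05 and 0.06 in the same order, and for all listed rows 0.02, 0.03, 0.02 and 0.04, in the authors' deposited table. The 191 listed lincRNA rows, non-coding RNAs that lie between genes, had medians of -0.03, -0.19, -0.10 and -0.06 in the same table and 67.3% of the called lincRNA rows were lower in trex4039. On the log2 ratio of group means with 1 added, the antisense medians were -0.06, -0.33, -0.24 and -0.12 and the protein-coding medians 0.03, 0.10, 0.06 and 0.06, so the deposited values are the smaller ones for antisense rows. All 4 comparisons share the 3 control libraries, so a low or high control mean enters each of them.

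**Figure D1:**
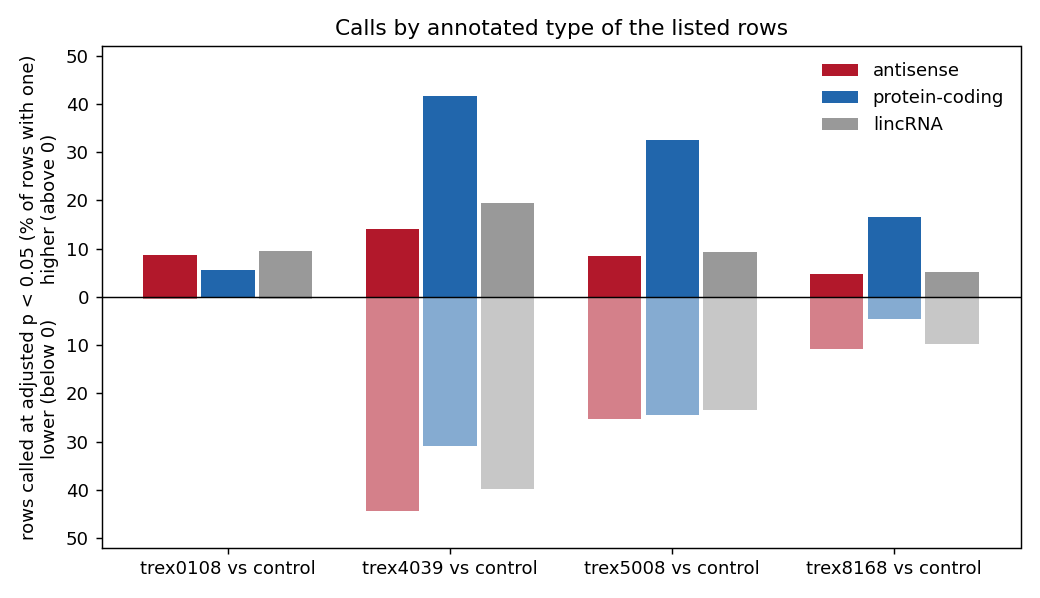
Share of rows called higher (above 0) or lower (below 0, paler) than control at an adjusted p under 0.05, as a percent of the rows of that type with an adjusted p, for antisense, protein-coding and lincRNA rows in 4 comparisons. Antisense rows reach 44.3% lower and 14% higher in trex4039, where protein-coding rows reach 30.9% lower and 41.6% higher.

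Antisense rows are also low in level, and among protein-coding rows the direction of change moved with level. In the authors' deposited table, among rows with a mean of 50 to 200, 24 antisense rows were higher and 63 lower in trex4039, with a median of -0.25, against 115 and 200 of the protein-coding rows, with a median of -0.17. Between 200 and 1000 it has 11 antisense rows higher and 49 lower in trex4039, against 668 and 561 protein-coding rows. In trex5008 the class of 50 to 200 held 8 antisense rows higher and 34 lower, against 22 and 146 protein-coding rows, and both medians were -0.16 in the authors' deposited table. In trex8168 that class held 4 antisense rows higher and 16 lower, against 30 and 53 protein-coding rows. In trex0108, 19% of the antisense rows under 50 were called higher, against 15.2% of the protein-coding rows. All 105 antisense rows under 50 had an adjusted p in trex0108, against 101 in trex4039, 60 in trex5008 and 68 in trex8168. A low row without an adjusted p elsewhere is listed only if it passed 0.1 in trex0108. The under-50 shares, and with them the share over all antisense rows, are thus partly set by that selection. From 50 to 200 the trex0108 shares were 4.58% and 10.3%, and from 200 to 1000 they were 3.57% and 7.32%. At 1000 and over they were 5.26%, which is 1 antisense row, and 3.29%. The 19 antisense rows with a mean of at least 1000 had nearly as many rises as falls, with 7 higher and 8 lower in trex4039 and 6 and 8 in trex5008. The part of level in the split was not tested.

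**Figure D2:**
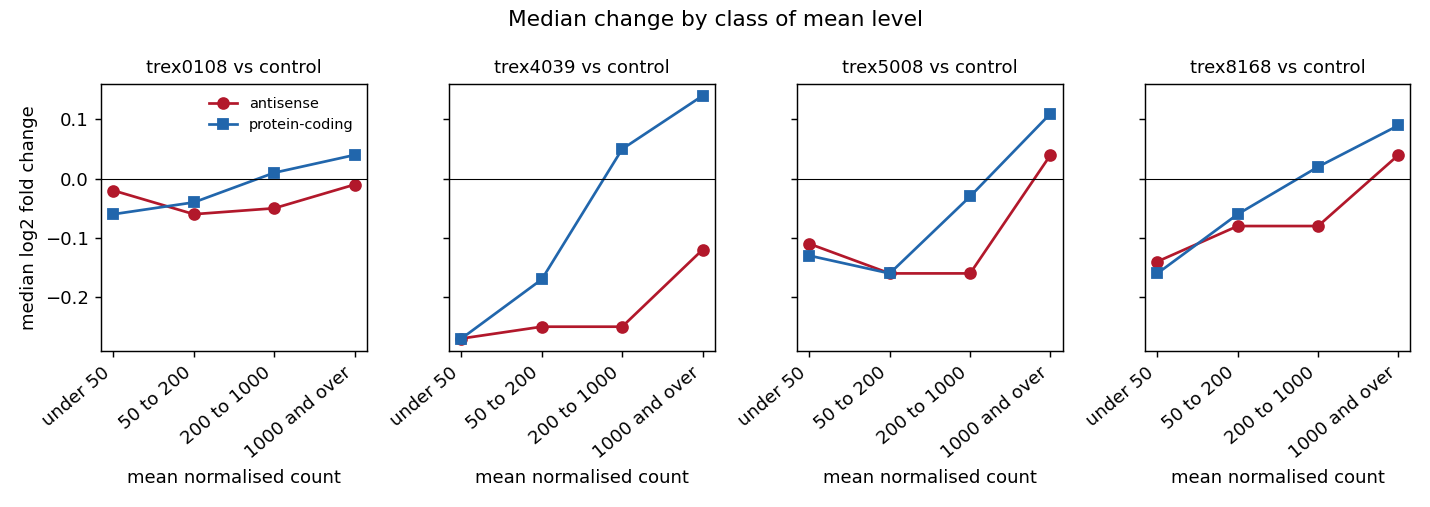
Median of the authors' log2 fold change against class of mean normalised count, for antisense rows (circles) and protein-coding rows (squares), one panel per comparison with control. In trex4039 the antisense median is -0.25 between 200 and 1000, where the protein-coding median is 0.05. Under 50 both are -0.27, against -0.61 for antisense and -0.81 for protein-coding rows by the log2 ratio of group means with 1 added.

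GC content moved with the calls as well, though not alike in each group. Transcript GC content could be matched for 6409 protein-coding rows (86.1%). In trex4039 the called protein-coding rows that were higher had a median GC of 42.6% and those lower 59.8%, and in trex5008 42.2% and 60.4%. Protein-coding rows of trex8168 had 46% and 56.9%. Those of trex0108 had 53.8% and 59.9%, the latter over 16 rows, and all matched protein-coding rows had 48.9%. Only 98 of the 361 antisense rows (27.1%) have a matched transcript, fewer than the 80% that a check over the set needs, so such a check is void. Among those 98 rows the median GC was 47.3% for the 15 higher and 56% for the 38 lower in trex4039, and 45.5% and 56.2% in trex5008. In trex8168 the values were 52.4% and 52.8%. The part of GC content in the antisense results was not tested.

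Across the 5 groups, antisense rows spread more widely than protein-coding rows on the scale of group means with 1 added. The highest group mean was a median of 1.53 times the lowest for antisense rows and 1.27 times for protein-coding rows, and 76 antisense rows (21.1%) reached 2 times, against 6.34% of the protein-coding rows. Low counts alone widen such a ratio, and the group means carry no spread, so the order of neighbouring groups is a description. The lowest of the 5 means lay in trex4039 for 172 antisense rows (47.6%), in control for 67 and in trex5008 for 55. For protein-coding rows the lowest lay in trex4039 for 31.3% and in control for 39%. The highest lay in control for 168 antisense rows (46.5%), in trex0108 for 64 and in trex4039 for 62. For protein-coding rows the highest lay in control for 19.3%, in trex0108 for 12% and in trex4039 for 37.1%. The authors' mean counts summed over the antisense rows came to 91425 in trex0108, 83804 in trex4039, 85570 in trex5008 and 88825 in trex8168, against 90760 in control.

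LINC01024, named MALINC1 in RefSeq (chr5:139452442-139494354, hg19 as for all row positions), rose in each comparison. Its authors' mean normalised count was 1226 in trex0108, 614.0 in trex4039, 455.6 in trex5008 and 697.8 in trex8168, against 380.0 in control. Control is the lowest of the 5 means and trex0108 the highest, above the other target groups as well. On the log2 scale the authors' deposited table gives 1.53, 0.62, 0.23 and 0.79 in that order, with adjusted p of 2.05e-74, 1.14e-11, 0.0263 and 1.68e-17. No listed protein-coding row overlaps it. RP11-245P10.4 (chr1:228594676-228632045) was the other antisense row called alike in all 4 comparisons, and it fell. Its means were 417.1 in trex0108, 357.3 in trex4039, 362.9 in trex5008 and 340.5 in trex8168, against 542.1 in control, so that control alone stands high. On the log2 scale it stood at -0.34, -0.53, -0.52 and -0.59 in the authors' deposited table.

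**Figure D3:**
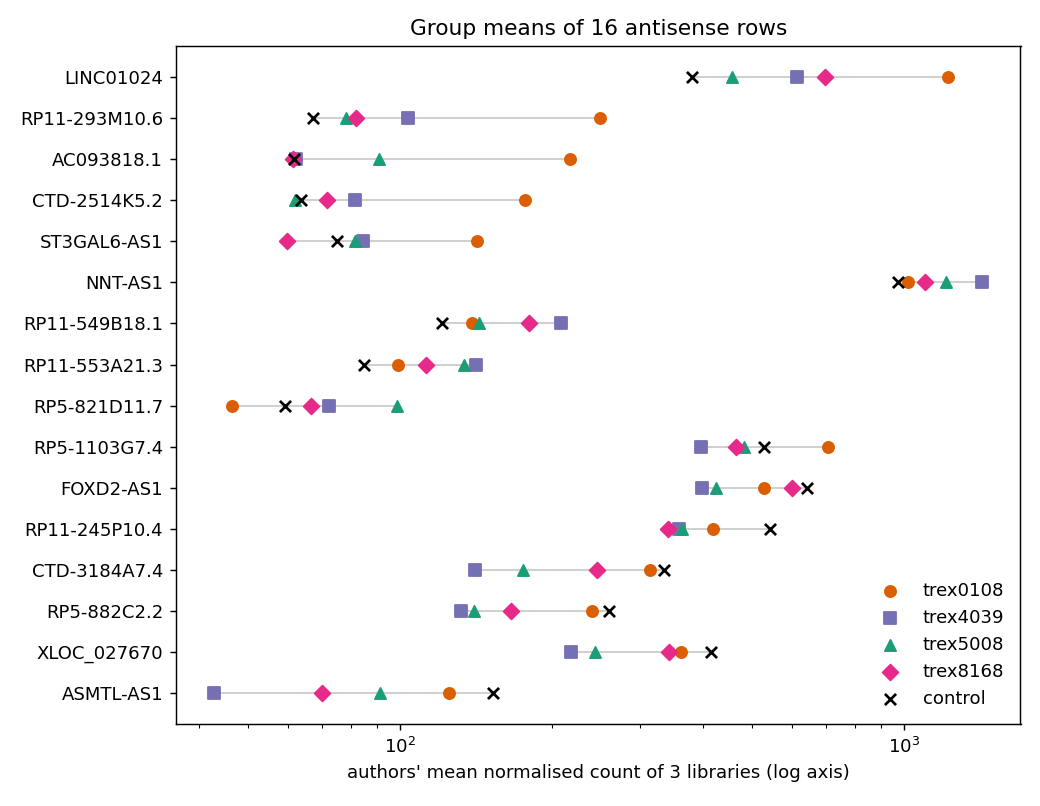
The authors' mean normalised count of 3 libraries (log axis) in trex0108, trex4039, trex5008, trex8168 and control for 16 antisense rows named in the text, with no error since the table gives none. LINC01024 has its highest mean in trex0108 (1226) and its lowest in control (380.0), and ASMTL-AS1 its lowest in trex4039 (42.8) and its highest in control (153.3).

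Antisense rows called higher in trex0108 numbered 31. By the authors' deposited table their median was 0.53 on the log2 scale, and 7 of the 31 reached 1. For protein-coding rows of trex0108 the authors' deposited table gives 411 rises with a median of 0.44, of which 62 reached 1. The largest protein-coding rise there was 5.23, against 2.17 for antisense rows. Rises of that size were thus not particular to antisense rows. A total of 20 of the 31 had a mean under 50, so 11 remain with a mean of at least 50. RP11-293M10.6 (chr14:75890321-75894976), which lies inside JDP2, a gene for a repressor of the AP-1 family, had a mean of 249.1 in trex0108 and 67.3 in control. In the authors' deposited table it stands at 1.50 on the log2 scale, with an adjusted p of 1.47e-34. AC093818.1 (chr2:173342191-173421168) overlaps ITGA6, the integrin alpha 6 gene, and had 217.8 in trex0108 and 61.6 in control. The gene itself did not follow, since the authors' deposited table gives 1.36 for AC093818.1 and 0.00 for ITGA6 on the log2 scale. CTD-2514K5.2 had 176.9 in trex0108 and 63.5 in control, and ST3GAL6-AS1 142.5 in trex0108 and 75.0 in control. Their log2 fold changes were 1.07 and 0.69 in the authors' deposited table.

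Below a mean of 50, 3 rows stood above LINC01024 on the deposited log2 scale in trex0108: RP13-638C3.4, CTD-2105E13.15 and EHMT2-AS1. CTD-2105E13.15 is described below with TMEM190. These rows and RP13-638C3.3, which stood below LINC01024, were named after their values were seen. At such low means the deposited log2 values lie much nearer 0 than the ratio of the group means, so both are given, the ratio with 1 added to each mean. RP13-638C3.4 (chr17:80560865-80562075), inside the forkhead factor gene FOXK2, had 101.1 in trex0108 and 1.23 in control, a ratio of 45.9, while the authors' deposited table has 2.17 on the log2 scale. FOXK2 itself had 6311 in trex0108 and 6293 in control and was not called. RP13-638C3.3, also inside FOXK2, had 16.8 in trex0108 and 1.26 in control, a ratio of 7.86, while the authors' deposited table has 0.53 (adjusted p 1.37e-07). RP13-638C3.3 has no adjusted p in the other 3 comparisons, so it is listed through trex0108 alone. EHMT2-AS1 on chromosome 6 had 74.0 in trex0108 and 4.70 in control, a ratio of 13.2, while the authors' deposited table has 1.60. In the other 3 groups RP13-638C3.4 had means from 4.41 to 4.90 and EHMT2-AS1 from 3.01 to 5.63.

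Falls in trex0108 numbered 2, RP11-245P10.4 and FOXD2-AS1, which starts beside the forkhead factor gene FOXD2. FOXD2-AS1 had means of 528.8 in trex0108, 397.3 in trex4039, 424.1 in trex5008 and 601.0 in trex8168, against 642.8 in control. The authors' deposited table gives -0.26 with an adjusted p of 0.0269 in trex0108, -0.63 with 2.13e-14 in trex4039 and -0.55 with 1.01e-10 in trex5008. It was not called in trex8168, where the authors' deposited table has -0.09 and an adjusted p of 0.487.

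The next rows are among the largest called falls of trex4039. CTD-3184A7.4 (chr20:62258210-62263352), which covers the start of GMEB2, had 141.1 in trex4039 and 175.2 in trex5008, against 334.1 in control. In the authors' deposited table these are -1.05 and -0.80 on the log2 scale (adjusted p 1.00e-22 and 3.13e-13). RP5-882C2.2 had 131.9 in trex4039, 140.5 in trex5008 and 165.8 in trex8168, against 260.3 in control. XLOC_027670 spans TBX2, a T-box transcription factor gene, and had 218.1 in trex4039 and 244.0 in trex5008, against 413.7 in control. For TBX2 itself the authors' deposited table gives -0.37 and -0.40, and both falls were called. BCAS3, which shares more of the span of XLOC_027670, stands at -0.11 and 0.06 in the authors' deposited table and was not called there. RP11-473M20.7 (chr16:3097072-3115245) had 642.5 in trex4039 and 1173 in control, or -0.78 on the log2 scale by the authors' deposited table. ASMTL-AS1 on chromosome X had 42.8 in trex4039, 91.1 in trex5008 and 70.1 in trex8168, against 153.3 in control. On the log2 scale ASMTL-AS1 stood at -1.11, -0.51 and -0.74 in the authors' deposited table.

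Among the largest falls by log2 fold change in trex5008 were CTC-338M12.5 and CTD-3154N5.1, at -0.66 and -0.57 in the authors' deposited table. Both were also called lower in trex4039, at -0.61 and -0.64. In trex8168, beside ASMTL-AS1, RP11-245P10.4 and RP5-882C2.2, RP11-386G11.10 and RP11-909N17.3 fell, by 0.53 and 0.49 on the log2 scale by the authors' deposited table. In trex4039 RP11-386G11.10 and RP11-909N17.3 stood at -0.66 and -0.64, both called, so these falls were not particular to trex8168. RP11-386G11.10 overlaps TUBA1B, an alpha-tubulin gene, and had 229.2 in trex8168 and 411.5 in control. TUBA1B itself was called higher in trex8168, at 0.19 in the authors' deposited table.

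The largest rises outside trex0108 were smaller on the log2 scale. The highest in trex4039, named after its values were seen because its mean is under 50, was RP11-266L9.2, with 88.9 in trex4039 and 52.8 in trex8168, against 31.7 in control. It stands at 0.87 and 0.40 in the authors' deposited table, both called. NNT-AS1 (chr5:43568235-43604056) covers the start of NNT, the gene of a mitochondrial transhydrogenase, and had 1430 in trex4039, 1210 in trex5008 and 972.4 in control. The authors' deposited table gives 0.52 for NNT-AS1 and 0.20 for NNT in trex4039, both called. RP11-549B18.1 had 209.0 in trex4039 and 180.6 in trex8168, against 121.4 in control, at 0.63 and 0.46 on the log2 scale by the authors' deposited table. RP11-553A21.3, inside the span of CD109, a surface protein gene, had 141.6 in trex4039 and 134.2 in trex5008, against 84.7 in control. CTC-241F20.3 rose by 0.53 on the log2 scale in trex4039 in the authors' deposited table. In trex5008, RP5-821D11.7 had 98.7 against 59.0 in control, and AC093818.1 had 91.0 against 61.6. RP11-656D10.3 and AC010761.13 rose there by 0.33 and 0.37 in the authors' deposited table. In trex8168, RP1-191J18.66, RP11-522I20.3 and RP1-39G22.7 rose by 0.38, 0.36 and 0.35 in the authors' deposited table.

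Called higher in trex0108 and lower in trex4039 were 2 antisense rows. RP5-1103G7.4 (chr20:291688-329134) overlaps SOX12, NRSN2 and TBC1D20 and had 707.5 in trex0108 and 395.5 in trex4039, against 528.1 in control. On the log2 scale of the authors' deposited table it stands at 0.39 (adjusted p 8.06e-06) and -0.38 (adjusted p 7.49e-06). RP11-728G15.1, which overlaps the calcium-binding protein gene CABP1, had 238.7 in trex0108 and 105.2 in trex4039, against 136.3 in control. The authors' deposited table has it at 0.67 and -0.29 on the log2 scale, the fall with an adjusted p of 0.0392. The difference between the target groups was not tested.

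The most abundant antisense rows went both ways. TUG1, first described in developing retina, had 7043 in trex0108, 8037 in trex4039, 7548 in trex5008 and 6957 in trex8168, against 6766 in control. It was called higher in trex4039 and trex5008, at 0.24 and 0.15 on the log2 scale by the authors' deposited table. FGD5-AS1 had 3061 in trex0108 and 3041 in trex4039, against 2586 in control, and both rises were called, at 0.23 and 0.22 in the authors' deposited table. TP73-AS1, opposite the p53 family gene TP73, had 2315 in trex4039 and 2659 in control. RP11-475N22.4, which overlaps the haematopoietic factor gene GATA2, had 1878 in trex5008 and 2287 in control. GS1-251I9.4 had 1852 in trex4039, 1680 in trex5008 and 1550 in trex8168, against 1333 in control, and all 3 rises were called, at 0.45, 0.32 and 0.21 in the authors' deposited table. XLOC_051591 had 1283 in trex4039 and 1359 in trex5008, against 1649 in control, and both falls were called. XLOC_057817 and SNHG7 complete the 8 rows with the highest means, which run from 1457 to 7270 over all libraries.

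A list of 39 antisense or regulatory RNA names in common use held 6 antisense rows. ASMTL-AS1 is given above. EMX2OS lies opposite EMX2, a homeobox gene of the developing cortex, and had 274.4 in trex4039, 294.7 in trex5008 and 300.2 in trex8168, against 368.4 in control. The authors' deposited table gives -0.37, -0.28 and -0.26 for EMX2OS in those groups, all called, and -0.30 in trex0108, where adjusted p was 0.056. EMX2 had 228.4 in trex4039 and 289.2 in control, or -0.29 on the log2 scale (adjusted p 0.0137) by the authors' deposited table. HOXA11-AS and MCM3AP-AS1 were called lower in trex4039 alone, at -0.20 and -0.17 in the authors' deposited table. TMPO-AS1 was called higher in trex8168 alone, at 0.28 by the authors' deposited table. WT1-AS, opposite the kidney tumour gene WT1, was not called in any comparison, with its lowest adjusted p, 0.0834, in trex4039 in the authors' deposited table. HOTAIR, an RNA of the HOXC cluster named after its values were seen, had 642.1 in trex4039 and 789.5 in control, or -0.28 on the log2 scale by the authors' deposited table.

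The pairs ask whether an antisense row and the protein-coding row it overlaps moved together. At least 1 bp was shared in 231 pairs, formed by 210 antisense rows and 227 protein-coding rows. The other 151 antisense rows overlap no listed protein-coding row, although an unlisted gene may lie there. Both kinds fell more often than they rose: in trex4039, 27 of the 210 rows were higher and 92 lower, and 23 of the 151 were higher and 66 lower, by the authors' deposited table. Partners of an antisense row were themselves lower more often than higher in trex4039, with 68 pairs where the protein-coding row was higher and 104 where it was lower.

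Pairs called in both rows mostly went the same way in trex4039 and trex5008. Each kind of row also fell more often than it rose there. In trex4039 the antisense row was higher in 29 pairs and lower in 107, the protein-coding row in 68 and 104. In trex5008 these were 20 and 52 for the antisense row, and 52 and 79 for the protein-coding row. How far these totals alone set the same-way counts was not tested. In trex4039, 18 pairs were higher in both rows and 67 lower in both, against 15 with the antisense row lower and its partner higher and 3 with the reverse. In trex5008, 8 pairs were higher in both and 26 lower in both, against 3 and 2 that went opposite ways. In trex8168, 3 pairs were higher in both, 1 lower in both and 4 had the antisense row lower and the partner higher. In trex0108, 6 pairs were higher in both and 0 went opposite ways, of 24 pairs with the antisense row higher and 14 with the protein-coding row higher. The antisense row was lower in only 1 pair there and the protein-coding row in only 1, so opposite calls could hardly occur. Across the 231 pairs Pearson's r of the deposited log2 fold changes was 0.35 in trex0108, 0.47 in trex4039, 0.40 in trex5008 and 0.06 in trex8168, with Spearman's rho of 0.27, 0.46, 0.40 and 0.04, in the authors' deposited table. These are descriptions over loci, which share libraries and, through overlap, base composition and perhaps reads. Where the overlap must cover at least 50% of the antisense row, the pairs called the same way fall to 41 in trex4039 and 15 in trex5008.

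**Figure D4:**
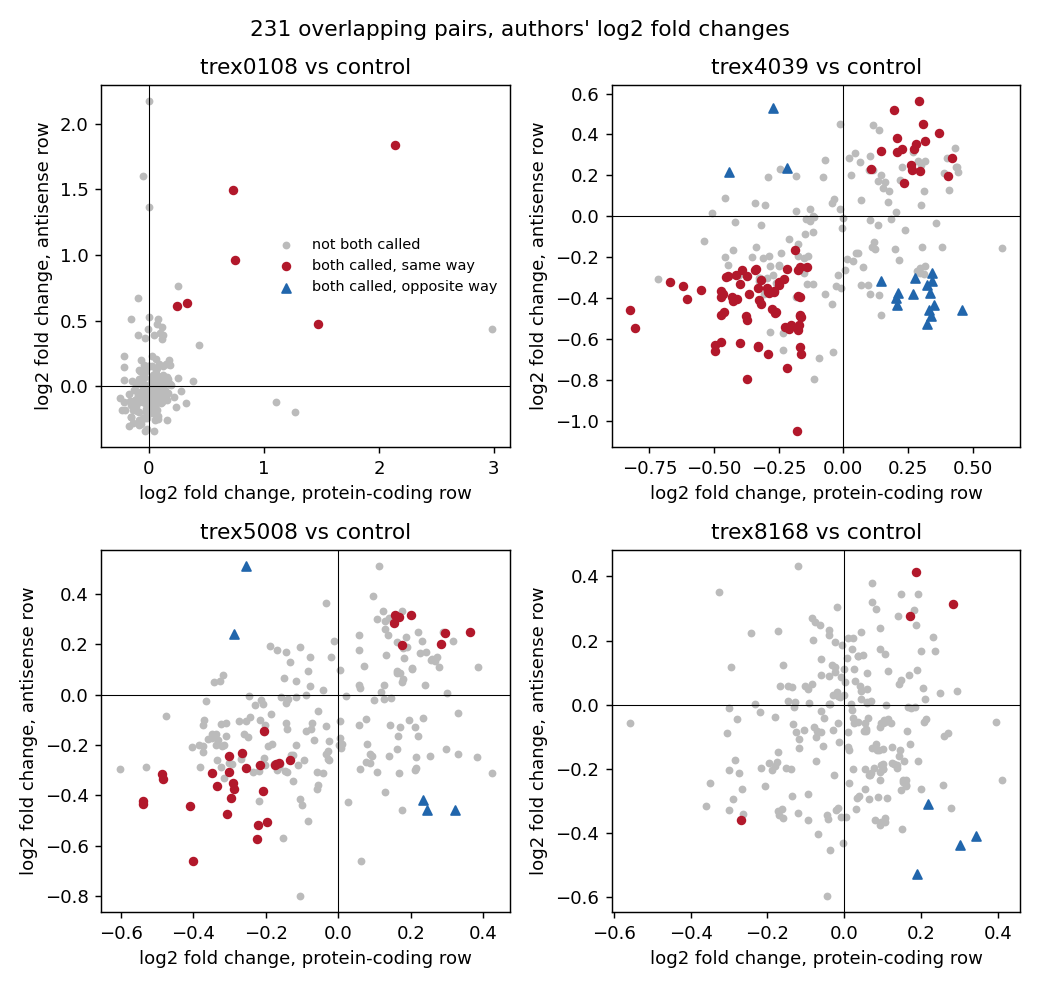
The authors' log2 fold change of the antisense row against that of the protein-coding row it overlaps, for 231 pairs in each of 4 comparisons with control. Red points are pairs with both rows called the same way (6, 85, 34 and 4 for trex0108, trex4039, trex5008 and trex8168), and blue triangles pairs called opposite ways (0, 18, 5 and 4).

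Placement could be read for the pairs whose protein-coding strand was matched. The antisense row covers the 5′ end of its partner in 83 pairs, the 3′ end in 45 and both ends in 7, and it lies inside the partner in 37. In trex4039, 29 of the 83 pairs at a 5′ end were called the same way and 8 opposite ways, 15 and 3 of the 45 at a 3′ end, and 14 and 1 of the 37 inside. Pearson's r in trex4039 was 0.51 at the 5′ end, 0.30 at the 3′ end and 0.39 inside, in the authors' deposited table. It was also 0.51 there for the 59 pairs whose protein-coding strand was not matched. The order of the placements differed by group. In the same order r was 0.43, -0.12 and 0.64 in trex0108, 0.47, 0.12 and 0.19 in trex5008, and -0.03, -0.10 and 0.25 in trex8168. Start sites of both members lay within 1000 bp in 10 of the 23 pairs that have both RefSeq windows, and of those 10, 3 were called the same way and 2 opposite ways in trex4039.

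The joint rises of trex0108 gather genes of unlike function. CTD-2105E13.15 lies inside TMEM190 and had 93.8 in trex0108 and 4.49 in control, while TMEM190 had 262.0 in trex0108 and 36.1 in control. RP11-379L18.1 had 64.2 in trex0108 and 14.7 in control, and NOL4, whose start it covers, had 559.7 in trex0108 and 309.8 in control. JDP2, around RP11-293M10.6, had 512.3 in trex0108 and 294.3 in control. MID1IP1-AS1 and RP11-483I13.5 rose with MID1IP1 and with the mitochondrial carrier gene SLC25A24, at 0.61 with 0.24 and 0.64 with 0.33 on the log2 scale by the authors' deposited table.

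Other partners rose in trex0108 without a called antisense row. BZRAP1 had 306.4 in trex0108 and 14.7 in control, or 2.98 on the log2 scale by the authors' deposited table. The BZRAP1-AS1 row over its 5′ end had 71.0 in trex0108 and 43.5 in control, which the authors' deposited table has at 0.44 (adjusted p 0.0633), and the BZRAP1-AS1 row that does not overlap it had 50.7 in trex0108 and 57.3 in control. BCMO1, the gene of a beta-carotene-cleaving enzyme, had 229.5 in trex0108 and 76.0 in control, and RP11-55K13.1 at its 3′ end had 75.9 in trex0108 and 92.1 in control. ANK1, the red-cell ankyrin gene, had 568.5 in trex0108 and 406.3 in control, and RP11-930P14.1 inside it had 41.0 in trex0108 and 26.6 in control.

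Opposite calls were the exception in trex4039. UGDH-AS1 had 203.1 in trex4039 and 203.2 in trex5008, against 294.5 in control, while UGDH, the gene of UDP-glucose dehydrogenase, had 1746 in trex4039 and 1642 in trex5008, against 1375 in control. Their log2 fold changes in trex4039 were -0.46 and 0.33 in the authors' deposited table, and SMIM14, at the far end of UGDH-AS1, stood at 0.46. The start sites of UGDH-AS1 and UGDH lie 400 bp apart in RefSeq. RP11-166B2.8 overlaps RSL1D1, a nucleolar protein gene, by 66 bp. It had 52.9 in trex4039, 55.2 in trex5008 and 58.2 in trex8168, against 87.7 in control, and RSL1D1 had 12560, 12431 and 12611 in those groups, against 9831 in control. The pair was called opposite ways in each of these 3 comparisons. TUG1 and MORC2, a chromatin ATPase gene, went the other way round, at 0.24 and -0.22 in trex4039 in the authors' deposited table. Their start sites lie 491 bp apart.

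Among the joint falls of trex4039, LINC00982, listed as 2 rows, had 132.3 and 20.6 in trex4039, against 222.4 and 42.2 in control, and both rows overlap PRDM16, a zinc finger factor gene, at -0.47 in the authors' deposited table. MFI2-AS1 and MFI2 stood at -0.63 and -0.50 in the authors' deposited table. In trex8168, RP11-445F12.1 and LHX1, a LIM homeobox gene, were the 1 pair lower in both rows, at -0.36 and -0.27 in the authors' deposited table. The joint rises of trex5008 include WAC-AS1 with WAC, UBA6-AS1 with UBA6, a ubiquitin-activating enzyme gene, and RP1-39G22.7 with ZMPSTE24, the prelamin A protease gene.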

How the data were processed

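RNA of 15 HEK293FT libraries in 5 groups of 3 was measured. Per the submitters' processing notes, the tools were DESeq2 1.14.1, DESeq, Cufflinks, bedtools, STAR 2.5.1b and Bowtie2 2.2.1 and the builds GRCh37 and hg19, whose roles are not stated. The deposited signal columns hold a mean normalised count for each group, made by the authors. The deposited log2 columns are the authors' fold changes of each target group over control. Adjusted p fills the deposited p-value columns, blank for some rows. The authors' call columns (a score of -1, 0 or 1) equalled an adjusted p under 0.1 with 0 mismatches. The file holds no values per library, so depth is unknown, no SD is given, and the count test planned for counts per library was replaced by the authors' adjusted p under 0.05.

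Starts, which the file counts from 0, were raised by 1. Rows were paired with protein-coding rows on shared bases, and strand, GC content and promoter windows were matched by symbol or RefSeq synonym (Python 3.11.15, pandas 2.3.3, GENCODE 29, RefSeq GRCh38.p14). No coordinates were carried between builds. The counting was tested on simulated rows. Named rows are the 5 strongest rises and 5 strongest falls in each comparison among rows called at 0.05 whose mean reached 50. To these were added the 8 highest means, rows called alike in all 4 comparisons or in both directions, a name list and the overlapping genes. Other rows, and the choice of the 6 sequences, were taken after their values were seen. The members and lists were chosen with earlier results of these data known. Alternatives changed the threshold, the mean, the size of change and the overlap.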

Additional observations from a re-analysis of the deposited data

How the results depend on the processing

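In trex4039, trex5008 and trex8168 lower antisense rows outnumbered higher ones under all 7 alternatives run. These recount the same calls and are not separate evidence. Taking the direction from the ratio of group means left each count of antisense rows as it was. Shares of all listed rows were not set beside these counts, so they show nothing particular to antisense rows. With an adjusted p under 0.01, the counts of higher and lower rows were 25 and 101 in trex4039, 10 and 51 in trex5008 and 3 and 13 in trex8168, and 1 row was lower in trex0108. With an adjusted p under 0.1, 42 rows were higher in trex5008, and 28 were higher and 60 lower in trex8168. Where the size of change on the log2 scale had to reach 0.3, 33, 12 and 9 rows were higher in trex4039, trex5008 and trex8168, and 1 lower in trex0108. Among the rows that overlap no listed protein-coding row, 11 were higher and 1 lower in trex0108, 23 and 66 in trex4039, 7 and 35 in trex5008, and 5 and 17 in trex8168, fewer since only 151 rows enter. With a mean of at least 50, 11 rows were higher in trex0108. Pairs called the same way numbered 2, 41, 15 and 2 in trex0108, trex4039, trex5008 and trex8168 with at least 50% of the antisense row covered. With an adjusted p under 0.1 they numbered 64 in trex5008 and 11 in trex8168, and with both means at least 50, 2 in trex0108. All other counts stayed within 1.5 times. Taking 1 row per symbol was chosen after seeing the data. The GC correction was not run, since too few antisense rows have a transcript, nor was the recount that adds pairs by start site to the overlapping ones, since the file gives no strand. RefSeq start sites were read for 23 overlapping pairs alone. No paired analysis was possible because the columns carry group means only, and replicates could not be left out for the same reason.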
